A study of Mus musculus with 9 samples.

Results

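Wdfy1, Entpd4, Nnt, Ide, Fgfbp3 and Crb1 are 6 mouse genes for which variation between stocks of the C57BL/6 strain family is known or has been reported. They were taken by symbol from 52160 gene symbols counted in whole-kidney RNA, and the description asks which libraries share a level of each. The 6 were chosen by symbol with their counts in these same libraries known, so their levels and fold changes are given as a description and carry no test. All 6 were found in the table that holds wild type and podocyte deletion, and 5 were analysed in all 9 libraries. Nnt was analysed in 6 libraries, and its level in the K2A libraries was not analysed here.

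Polyadenylated RNA of whole kidney was sequenced from mice aged 16 weeks, in 3 groups of 3 libraries. Wild type (WT) were C57BL/6N mice from the supplier Janvier. In the second group, called ΔPod, Ybx1 was deleted from podocytes, the filtering epithelial cells of the glomerulus. In the third group, called K2A, podocytes carried a Ybx1 mutant with K299A and K302A in exon 7, which removes both lysines needed for acetylation-dependent secretion of the protein. The labels give a C57Bl/6N background for all 3 groups and name a supplier for wild type alone. They do not give the Cre driver, the breeding or backcrossing of the mutant lines, or the sex of the animals. Nor do they state whether libraries come from different animals, and p-values cover only the spread between samples, which may be technical.

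C57BL/6J and C57BL/6N are sister substrains that have been bred apart for decades and differ at a limited set of loci. As background, C57BL/6J carries a loss-of-function allele of Nnt, and C57BL/6N carries the rd8 allele of Crb1. Copy number of the segment with Ide and Fgfbp3 has been reported to vary among C57BL/6J stocks, and the level of the Wdfy1 transcript is known to differ between the substrains. The files hold counts per gene and no genotype, so they give the level of each transcript and not the allele.

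The total count per library ran from 30777142 to 46882253. Ybx1 itself, most of whose kidney RNA can come from cells other than podocytes, lay at 1185 to 1585 CPM in WT, 605 to 1167 in ΔPod and 554 to 1152 in K2A. CPM divides each count by the library's total after TMM scaling. Its log2 fold change was -0.58 in ΔPod (edgeR quasi-likelihood test, adjusted p = 0.465) and -0.51 in K2A (adjusted p = 0.725). In bulk tissue, fewer cells of a type and less RNA per cell cannot be told apart.

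3 properties of the libraries moved with the groups or across them. For the length slope, each gene's log2 CPM, less its mean over all libraries, was regressed on the gene's log2 exonic bases. Its sign is thus relative to the other libraries. The slope was positive in WT 1, WT 3, ΔPod 3 and K2A 3, at 0.20 to 0.30. It was negative in the other libraries, at -0.38 to -0.06. The 4 Y-linked genes summed to 94.4 to 119 CPM in WT with Xist at 0, against 0 in ΔPod and at most 0.682 in K2A with Xist at 17.0 to 331 in both mutant groups. The 4 fat cell markers summed to 31.6 to 79.6 CPM in WT, 22.9 to 411 in ΔPod and 43.1 to 688 in K2A, and the 4 urothelial markers to 2.52 to 5.13, 0.0403 to 29.0 and 3.75 to 37.6. The sex-linked pattern separates WT from both mutant groups, so it cannot be told apart from genotype in any comparison with WT. The part of fat or urothelial tissue in the results was not tested.

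Entpd4 has a near-identical copy, Entpd4b, and this decides what its counts mean, so the copy is shown first. In GENCODE vM21 on mm10, Entpd4 lies at chr14:69337174-69367270 on the plus strand and Entpd4b at chr14:69555424-69585520 on the same strand, 188 kb further on. All 5 annotated Entpd4b transcripts have an Entpd4 transcript with the same sequence, the longest of 3589 bases, with 0 differing bases. The window around the start of Entpd4b, from RefSeq on GRCm38.p6 (chr14:69555151-69555450, plus strand), is printed with the transcribed bases in capitals. Those 27 bases were found in 1 transcript of Entpd4 and in 1 of Entpd4b.
Entpd4b: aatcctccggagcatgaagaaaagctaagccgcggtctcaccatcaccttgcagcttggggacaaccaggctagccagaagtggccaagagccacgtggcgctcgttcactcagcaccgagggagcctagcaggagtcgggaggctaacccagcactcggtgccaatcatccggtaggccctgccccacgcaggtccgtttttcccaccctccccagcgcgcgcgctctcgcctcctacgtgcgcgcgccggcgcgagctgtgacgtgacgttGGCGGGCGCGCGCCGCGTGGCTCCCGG
The count of Entpd4 was 95.6% to 100% of the Entpd4b count in every library, and how reads that match both places were counted is not given in the sources used here. The 2 rows are therefore read as a single measurement of the pair, and which copy a read came from is uncertain.

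Wdfy1, on chr1:79702262-79776143 (minus strand), showed 3 levels that did not overlap. It encodes an adaptor with a FYVE domain and WD repeats that takes part in signalling from the endosomal RNA sensor TLR3 and from TLR4. Its level was 71.4, 66.9 and 72.2 CPM in WT libraries 1, 2 and 3, and 7.56, 8.39 and 8.26 CPM in the ΔPod libraries. In the K2A libraries it was 28.9, 50.4 and 34.8 CPM. All WT libraries shared the high level, all ΔPod libraries shared the low level, and the K2A libraries lay between them.

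The spread within the Wdfy1 levels was narrow in 2 of the 3 groups. The mean was 70.2 ± 2.85 CPM (SD, n = 3) in WT, 8.07 ± 0.448 in ΔPod and 38.1 ± 11.1 in K2A. ΔPod thus stood at 11.5% of WT and K2A at 54.2%. The log2 fold change was -3.12 (SE 0.29) in ΔPod, -0.88 (SE 0.27) in K2A and 2.24 (SE 0.28) between K2A and ΔPod. The counts behind the low level were 209, 358 and 410, so counting error was small beside the distance between groups. The highest and lowest K2A library differed by 1.74-fold.

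Within ΔPod, the Wdfy1 levels lay close together in libraries of unlike length slope and fat content. ΔPod 3, whose length slope was 0.27, held 8.26 CPM, and ΔPod 1, whose slope was -0.38, held 7.56 CPM. K2A 3, with a slope of 0.30, lay between K2A 1 and K2A 2, with slopes of -0.21 and -0.22. The sum of fat cell markers was 411 CPM in ΔPod 1 and 22.9 in ΔPod 3, libraries at nearly the same Wdfy1 level. In K2A the highest Wdfy1 level stood in K2A 2, which also had the highest sums of fat cell markers (688 CPM) and urothelial markers (37.6 CPM). The part of the length slope and of these tissues in the Wdfy1 level of either mutant group was not tested. The sex-linked pattern, which separates WT from both mutant groups, cannot be told apart from genotype here.

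**Figure D1:**
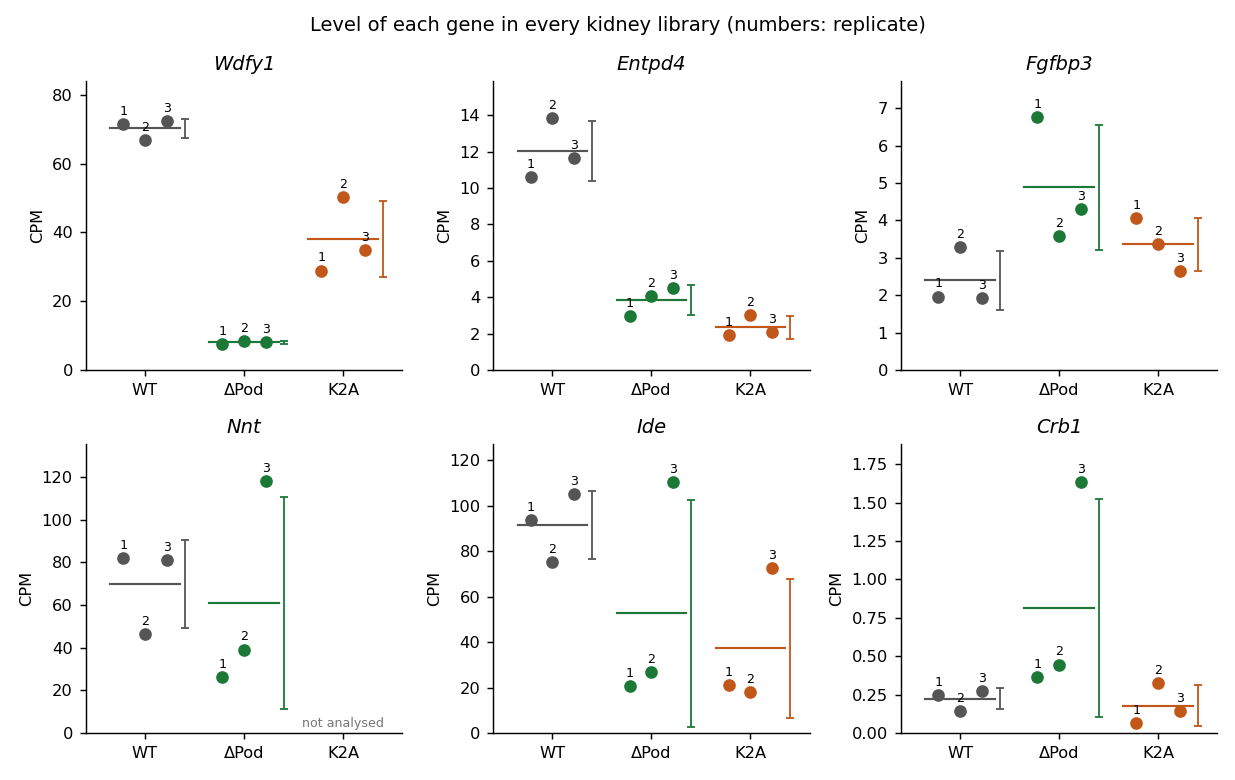
Level of each gene in CPM (y axis, linear, from 0) in every library of WT, ΔPod and K2A (x axis); points are libraries with their replicate number, the horizontal line is the group mean and the bar beside it spans the mean ± SD (n = 3). Wdfy1 takes 3 separate levels, Entpd4 is higher in WT than in any mutant library, and Nnt and Ide reach the WT range in ΔPod 3; Nnt in K2A was not analysed here.

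Entpd4, which encodes a nucleoside diphosphatase of Golgi and lysosomal membranes, was high in WT and low in both mutant groups. Its level was 10.6, 13.8 and 11.7 CPM in WT and 2.97, 4.08 and 4.51 CPM in ΔPod. In K2A it was 1.92, 3.05 and 2.08 CPM. Every mutant library lay below every WT library, while the highest K2A library lay above the lowest ΔPod library.

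Pearson's r of log2 CPM with the length slope was 0.35 over 9 libraries. The group means of Entpd4 were 12.04 ± 1.64 CPM (SD, n = 3) in WT, 3.85 ± 0.799 in ΔPod and 2.35 ± 0.612 in K2A. The mutant means were 32.0% and 19.5% of WT. The log2 fold change was -1.64 (SE 0.31) in ΔPod, -2.35 (SE 0.32) in K2A and -0.71 (SE 0.30) between K2A and ΔPod. The row of Entpd4b gave the same picture, with 11.03, 14.3 and 12.1 CPM in WT, 2.97, 4.27 and 4.59 in ΔPod and 1.92, 3.08 and 2.13 in K2A. Because the rows share their sequence, the Entpd4b values are not independent of those of Entpd4.

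Beside Entpd4, the gene Gm16867 was near 0 in every K2A library. It is a predicted protein-coding gene of unknown role on the minus strand at chr14:69363504-69503362, a body of 139.859 kb that overlaps the end of Entpd4 by 3767 bases and runs towards Entpd4b. Its level was 1.44, 1.49 and 1.11 CPM in WT and 3.002, 1.17 and 1.01 CPM in ΔPod. In K2A it was 0.0620, 0 and 0.0484 CPM. ΔPod 1 was highest, the other ΔPod libraries lay at or near the WT range, and every K2A library lay far below both groups. The counts were 149 in WT, 183 in ΔPod and 4 in K2A in all.

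Gm16867 fell in K2A against WT by 5.06 on the log2 scale (SE 0.77, edgeR quasi-likelihood test, adjusted p = 0.0252), lower in 3 of 3 libraries. In ΔPod its log2 fold change was 0.35 (adjusted p = 0.753), and -0.31 without ΔPod 1. The difference between K2A and ΔPod was -5.41 (SE 0.78, adjusted p = 0.768 with edgeR). That difference passed in 2 of 18 alternatives, DESeq2 and the length slope as a covariate, with adjusted p = 9.55e-06 at the lowest. With so few reads in K2A the size of the fitted fold depends on the prior count. The call against WT was lost when any WT library, any K2A library or ΔPod 2 was left out, with adjusted p up to 0.112, while the log2 fold change stayed between -5.54 and -4.55 over 18 alternatives.

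Of the 19 annotated genes from Slc25a37 to Entpd4b, 13 had 0 counts in all 9 libraries. Slc25a37, a mitochondrial iron carrier and the nearest tested gene on the other side of Entpd4, lay at 13.5 to 21.2 CPM in WT, 4.59 to 20.3 in ΔPod and 6.88 to 24.6 in K2A. Its groups overlapped, with a log2 fold change of -0.67 in ΔPod (adjusted p = 0.610) and -0.38 in K2A (adjusted p = 0.851). The Entpd4 body and the Gm16867 body lie on opposite strands, and the strand setting of the counting is not given in the sources used here. Reads from their shared stretch therefore cannot be assigned to either with certainty.

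**Figure D2:**
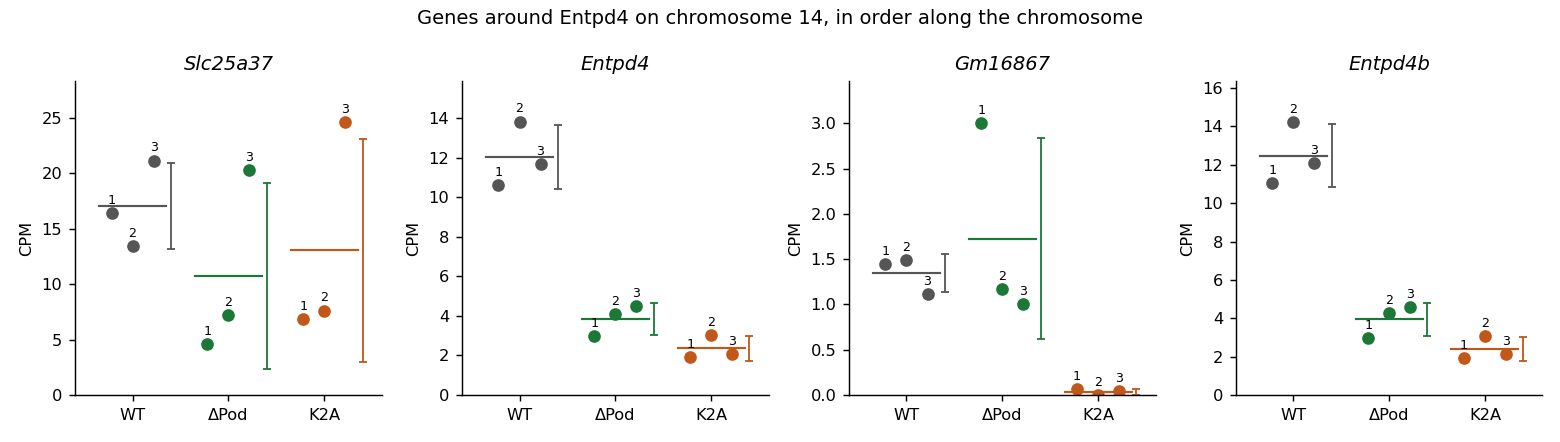
Level in CPM (y axis, linear, from 0, own scale in each panel) of 4 genes in their order along chromosome 14, by group (x axis); points are libraries with their replicate number, lines are group means and bars span the mean ± SD (n = 3). Entpd4 and Entpd4b are low in ΔPod and K2A alike, Gm16867 is near 0 in K2A with 4 counts in all, and the groups of Slc25a37 overlap.

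Nnt, on chr13:119335448-119408997 (minus strand), encodes the nicotinamide nucleotide transhydrogenase of the inner mitochondrial membrane, which makes NADPH. GENCODE gives the symbol to 2 overlapping gene models, and which of them the row counts is not given. The mm10 assembly comes from C57BL/6J, whose Nnt gene lacks internal exons, so reads of those exons have no place to be counted. The level was 82.1, 46.1 and 81.2 CPM in WT and 26.0, 39.1 and 118 CPM in ΔPod. The groups overlapped: WT 2 lay nearest ΔPod 2, and ΔPod 3 stood above every WT library.

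The mean of Nnt was 69.8 ± 20.5 CPM (SD, n = 3) in WT and 61.0 ± 49.7 in ΔPod, with a log2 fold change of -0.18 (SE 0.60) from a fit of these 6 libraries. Reads were thus present in every library analysed. Without ΔPod 3 the fold change was -1.11, and without ΔPod 1 it was 0.19. The order of the 6 libraries by Nnt was close to their order by length slope. Pearson's r of log2 CPM with the slope was 0.98 over 6 libraries, given as a description.

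Ide, on chr19:37268743-37337852 (minus strand), encodes the insulin-degrading enzyme, a zinc peptidase. Its level was 93.7, 75.5 and 105.1 CPM in WT, 20.6, 27.0 and 110.4 CPM in ΔPod and 21.2, 18.1 and 72.5 CPM in K2A. Libraries 1 and 2 of both mutant groups shared a low level of 18.1 to 27.0 CPM. ΔPod 3 lay with the WT libraries, and K2A 3 lay just under the lowest of them.

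The mean of Ide was 91.4 ± 14.9 CPM (SD, n = 3) in WT, 52.7 ± 50.1 in ΔPod and 37.3 ± 30.5 in K2A. The log2 fold change was -0.80 (SE 0.74) in ΔPod, -1.29 (SE 0.74) in K2A and -0.50 (SE 0.73) between K2A and ΔPod. Leaving out the third library moved it to -1.98 in ΔPod and to -2.27 in K2A. On log2 CPM, Pearson's r between Ide and the length slope was 0.91 over 9 libraries. That between Ide and Nnt was 0.91 over the 6 they share. ΔPod 3 and K2A 3 were the mutant libraries with a positive slope. They also had the higher sums of proximal tubule markers, at 8214 and 4708 CPM against 1168 to 2150 in the other mutant libraries. The distal tubule marker was higher in them too, at 1202 and 1075 CPM against 54.0 to 154, and fat cell markers were lower, at 22.9 and 43.1 CPM against 136 to 688. The part of these properties in the levels of Ide and Nnt was not tested.

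**Figure D3:**
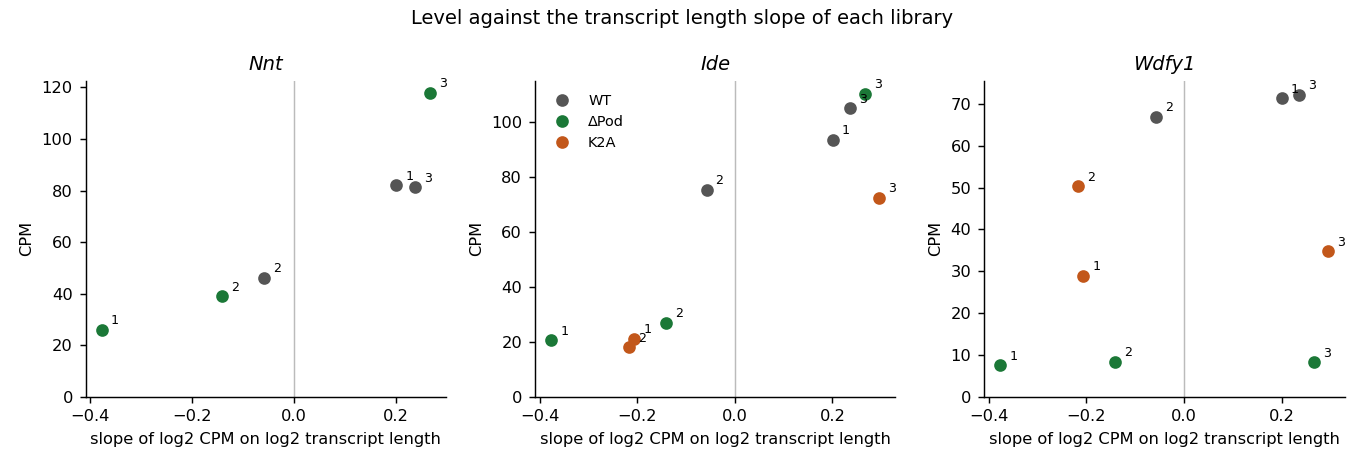
Level in CPM (y axis, linear, from 0) of Nnt (6 libraries), Ide and Wdfy1 (9 libraries each) against the length slope (x axis, no unit). The slope is that of each gene's log2 CPM, less its mean over the 9 libraries, on the gene's log2 exonic bases. Points are libraries, coloured by group and marked with the replicate number. Nnt and Ide are high in libraries with a positive slope. Pearson r with the slope, taken on log2 CPM and not on the CPM drawn, is 0.98 and 0.91. For Wdfy1 r is 0.32, with levels close together within WT and within ΔPod and a 1.74-fold spread within K2A.

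Fgfbp3, on chr19:36917550-36919615 (minus strand) and 349 kb from Ide, encodes a secreted protein that binds fibroblast growth factors. Its level was 1.97, 3.29 and 1.93 CPM in WT and 6.76, 3.59 and 4.31 CPM in ΔPod. In K2A it was 4.06, 3.38 and 2.64 CPM. All ΔPod libraries lay above all WT libraries, the nearest being WT 2 and ΔPod 2, and K2A overlapped both groups. Pearson's r of log2 CPM with the length slope was -0.70 over 9 libraries. The highest level was that of ΔPod 1, the library with the lowest slope.

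The mean of Fgfbp3 was 2.40 ± 0.777 CPM (SD, n = 3) in WT, 4.89 ± 1.66 in ΔPod and 3.36 ± 0.711 in K2A. Its log2 fold change was 1.03 (SE 0.37) in ΔPod, 0.49 (SE 0.37) in K2A and -0.54 (SE 0.37) between K2A and ΔPod. Fgfbp3 and Ide, which have been reported to lie in a shared variable segment, had an r of -0.61 between their log2 CPM over 9 libraries. Their r with the length slope was -0.70 and 0.91, and copy number was not tested. Marchf5, a mitochondrial ubiquitin ligase that lies between them, was at 87.8, 89.4 and 88.0 CPM in WT, 62.4, 72.3 and 70.8 in ΔPod and 79.3, 82.99 and 82.4 in K2A. Its groups did not overlap, and its log2 fold change was -0.37 in ΔPod (adjusted p = 0.428) and -0.12 in K2A (adjusted p = 0.862).

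Crb1, on chr1:139197056-139377100 (minus strand), encodes a Crumbs polarity protein known for its role in retina. It was close to the limit of detection, with 9, 5 and 11 counts in WT, 10, 19 and 81 in ΔPod and 2, 11 and 6 in K2A. In CPM this was 0.250, 0.143 and 0.272 in WT, 0.362, 0.445 and 1.63 in ΔPod and 0.0620, 0.326 and 0.145 in K2A. ΔPod 3 stood apart, the other ΔPod libraries lay just above the highest WT or K2A library, and WT and K2A overlapped. ΔPod 1 held 10 counts against 11 in WT 3 and 11 in K2A 2, so its place above them rests on the library scaling.

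The log2 fold change of Crb1 was 1.87 (SE 0.75) in ΔPod, -0.32 (SE 0.79) in K2A and -2.19 (SE 0.76) between K2A and ΔPod. Without ΔPod 3 the first was 0.82 and the last was -1.18. At these counts a moderate difference between groups was not detectable. The counts do not cover the allele, so they say nothing of rd8.

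Per kilobase of exon, mean WT levels were 12.2 CPM for Ide, 10.8 for Wdfy1 and 9.92 for Nnt. With these lengths the WT libraries of the 3 genes overlapped. The Nnt value takes the gene model of 7037 exonic bases. The other model has 3339, and which of them the row counts is not given. With the shorter model Nnt would stand higher, so its place here is uncertain. Entpd4 at 1.49 and Fgfbp3 at 1.35 CPM per kilobase formed the next level and also overlapped. Crb1 was lowest at 0.0153 CPM per kilobase.

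Read by library, the highest WT library stood at most 1.90-fold above the lowest for each of the 6 genes, the widest spread being that of Crb1 at 5 to 11 counts. Wdfy1, Entpd4 and Ide sorted the 9 libraries in 3 ways. Wdfy1 gave WT, then K2A, then ΔPod. Entpd4 set WT against both mutant groups, and Ide set libraries 1 and 2 of both mutant groups against the rest. Pearson's r of log2 CPM between Wdfy1 and Entpd4 was 0.50 over 9 libraries, and between Wdfy1 and Ide it was 0.34. Since both comparisons with WT use the same WT libraries, their values stand side by side and no overlap between them is drawn.

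For scale, 178 of 18067 tested genes passed the edgeR quasi-likelihood test at an adjusted p of 0.05 in ΔPod against WT, which is 0.985%, and 1 of the 5 tested in that fit, Wdfy1, was among them. In the fit of 6 libraries used for Nnt, 0.312% of 17286 genes passed and Nnt did not. In K2A against WT 0.847% passed, and 1 of the 5, Entpd4, was among them. Between K2A and ΔPod 0% passed with edgeR, 364 genes had an unadjusted p under 0.05 (2.01%), and DESeq2 called 19. Groups did not overlap for 18.2% of all genes in ΔPod against WT, 20.1% in K2A against WT and 5.11% between the mutants. Among the 5 genes they did not overlap for 4, 3 and 2, with Crb1, close to the limit of detection, among the 4 and the 2. The choice of the genes used these contrasts, so nothing is read from the counts. Over all tested genes the median log2 fold change lay at 0.08, 0.09 and -0.01 in the same order.

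The genes around the 6 were not used in choosing them, apart from what Entpd4b shares with Entpd4. Within 500 kb of their bodies 41 neighbours were tested. In ΔPod against WT 0 neighbours passed the edgeR test, the smallest adjusted p being 0.0536 for Entpd4b, and DESeq2 called 3. In K2A against WT, where 0.526% of all tested genes passed as lower, 2 neighbours fell and 0 rose: Gm16867, and Entpd4b with a log2 fold change of -2.39 (SE 0.32, adjusted p = 0.0176). The Entpd4b row is read as a single measurement with Entpd4, a chosen gene, so its call adds nothing independent. Gm16867 is thus the separate neighbour that fell. The Entpd4b call was lost when any WT library, K2A 1 or K2A 2 was left out, with adjusted p up to 0.103. Between the mutants 0 passed with edgeR and DESeq2 called 1. The median log2 fold change of the neighbours was -0.09, -0.26 and -0.05 in the same order, beside 0.08, 0.09 and -0.01 for all genes.

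None of the 7 tested neighbours of Wdfy1 passed in any of the 3 comparisons. Ap1s3, a subunit of a clathrin adaptor, had a log2 fold change of -0.67 in ΔPod (adjusted p = 0.372) and -0.72 in K2A (adjusted p = 0.436). Mrpl44, a mitochondrial ribosomal protein gene that overlaps Wdfy1 by 126 bases on the other strand, had 0.34 in ΔPod (adjusted p = 0.738) and 0.03 in K2A (adjusted p = 0.987). Without the strand setting, reads of that overlap cannot be assigned to either gene with certainty. The 7 neighbours ranged from -0.67 to 0.34 in ΔPod, against -3.12 for Wdfy1.

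Next to Nnt, Paip1, a regulator of translation that binds the poly(A)-binding protein, had 0.11 in ΔPod (adjusted p = 0.862) and 0.01 in K2A (adjusted p = 0.990). Beside Fgfbp3, the tankyrase gene Tnks2 had -0.50 and -0.59, and Btaf1, a regulator of the TATA-binding protein, had -0.49 and -0.42, with adjusted p of 0.633 to 0.843. Kif11, a mitotic kinesin beside Ide, had -0.11 and -0.75 (adjusted p = 0.910 and 0.702). Beside Crb1, Dennd1b, an exchange factor for Rab GTPases, had -0.25 and 0.16, and Zbtb41 had 0.08 and -0.38, with adjusted p of 0.706 to 0.890. None of these passed, and each pair of values gives ΔPod first and K2A second.

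**Figure D4:**
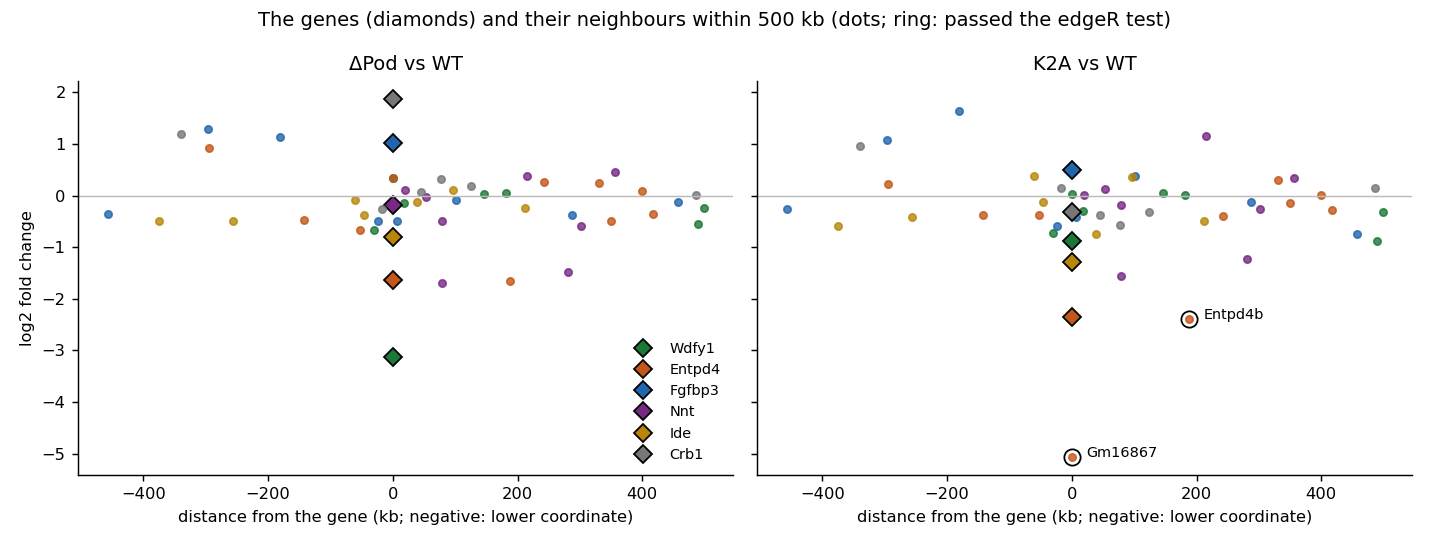
Log2 fold change (y axis) in ΔPod vs WT (left) and K2A vs WT (right) of the genes, drawn as diamonds at 0, and of their 41 tested neighbours, drawn as dots at their distance in kb (x axis, negative towards lower coordinates; a neighbour of Fgfbp3 and Ide is drawn for both). Rings mark the neighbours that passed the edgeR test, Gm16867 at -5.06 and Entpd4b at -2.39 in K2A. Entpd4b is not independent of Entpd4, and Nnt has no K2A value.

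Other genes known to vary among C57BL/6 stocks were looked up, among them Cyfip2, Nlrp12, Mmrn1, Gabra2 and Dock2. Of these 5 genes 3 were tested, and 0 passed in any of the 3 comparisons. Cyfip2, an actin regulator with a coding variant in C57BL/6N, lay at 305, 100.5 and 291 CPM in WT, 20.5, 79.7 and 352 in ΔPod and 72.2, 64.7 and 400 in K2A. Like Ide, it was lowest in libraries 1 and 2 of the mutants and high in ΔPod 3 and K2A 3.

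Mmrn1, which encodes multimerin 1, had reads in all 9 libraries, at 0.554 to 3.58 CPM. Mmrn1 was at most 1.01 CPM in WT and at least 1.51 CPM in the mutants, with a log2 fold change of 1.69 in ΔPod (adjusted p = 0.139) and 1.27 in K2A (adjusted p = 0.286). Dock2, duplicated in part in a C57BL/6N stock, lay at 0.470 to 2.96 CPM with overlapping groups. Gabra2 and Nlrp12 reached at most 0.0286 and 0.121 CPM, too low to be tested.

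In the pathways of the 6 genes few genes passed. Of 14 tested genes of TLR3 and TLR4 signalling through the adaptor TRIF, and of the 3 other Wdfy genes, 0 passed in any comparison. The median log2 fold change of the signalling genes was -0.23 in ΔPod and -0.01 in K2A. Wdfy3, a large scaffold of selective autophagy, ranged from 14.8 to 179 CPM, with its highest levels in K2A 3 and ΔPod 3.

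Of 11 tested nucleotidases, 2 fell and 0 rose in K2A against WT, where 0.526% of all tested genes passed as lower. In the other comparisons 0 passed. The list was chosen with earlier results of these data known, so nothing is read from this count. One was Entpd4b, whose counts cannot be told apart from those of Entpd4 and add nothing independent. The other was Nt5e, the cell-surface enzyme CD73 that makes adenosine from AMP. Nt5e lay at 209 ± 32.6 CPM (SD, n = 3) in WT, 78.4 ± 9.15 in ΔPod and 68.0 ± 17.0 in K2A. Its log2 fold change was -1.62 in K2A (SE 0.29, adjusted p = 0.0460) and -1.42 in ΔPod (SE 0.29, adjusted p = 0.0671), lower in 3 of 3 libraries of each. The call in K2A held in 5 of 18 alternatives, with adjusted p from 1.21e-07 to 0.203. Proximal tubule markers moved in the same direction, with sums of 4927 to 11157 CPM in WT, 1168 to 8214 in ΔPod and 1624 to 4708 in K2A, and their part in the result was not tested. The median of the list was -0.83 in ΔPod and -0.31 in K2A.

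Of 17 tested genes of mitochondrial NADPH supply and peroxide removal, 0 passed, with medians of 0.19 in ΔPod and 0.09 in K2A. The same count of 0 held for 11 tested peptidases of the Ide family and insulin signalling genes, with medians of -0.43 and -0.05. It held for 12 tested ligands, receptors and binding proteins of the Fgf family, with medians of -0.30 and -0.15. Of 16 tested polarity genes 0 passed, with medians of -0.37 and -0.29. Crb2, the Crumbs gene of podocytes, lay at 0.687 to 7.98 CPM, highest in ΔPod 3 and K2A 3.

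The tested genes whose log2 CPM ran most like each of the 6 were found by Pearson's r, as a description over the 9 libraries. Predicted genes, pseudogenes and Riken clones were left out. For Wdfy1 they were Glrx, Marchf5 and Camk2n2, with r of 0.95, 0.95 and 0.94. For Entpd4 they were Entpd4b, Srd5a2 and Ddx52, with r of 0.9999, 0.97 and 0.97. For Ide they were Dynll2, Suclg2 and Ido2, each with r of 0.99. For Fgfbp3 they were Ccdc167, Nat8f3 and Il33, with r of 0.94, 0.93 and 0.93. For Crb1 they were Dusp6, Tmem52b and Rasd1, with r of 0.92, 0.89 and 0.89. For Nnt, over 6 libraries, they were Pdgfrb, Synpo and Ddx10, with r of 0.9998, 0.9992 and 0.9991. Genes of a library share its depth and its length slope. Likeness in r is not likeness in range: Glrx ran from 15.5 to 31.9 CPM and Marchf5 from 62.4 to 89.4, against 7.56 to 72.2 for Wdfy1.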

How the data were processed

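Per the labels, poly(A) RNA was isolated with Dynabeads from RNeasy extracts of kidney and entered strand-marking ScriptSeq v2 libraries. The authors deposited raw counts per gene symbol in 2 tables, each with the WT libraries and 1 mutant group. The submitters' processing notes name STAR 2.7.3a and featureCounts 2.0.1 with the build mm10, beside DESeq2 1.30.0, Trim Galore 0.6.3, FastQC 0.11.9 and MultiQC 1.10.1. The tables hold 52182 and 52169 symbols, of which 52163 are shared. 3 with differing WT counts were left out. Counts were fitted in R 4.3.3 with edgeR 4.0.16: filterByExpr, TMM factors, a group term over 9 libraries and the quasi-likelihood test with Benjamini-Hochberg adjustment over 18067 genes at 0.05. The SE was taken from the fold change and its F statistic. The procedure was run on simulated counts that had a single dispersion for all genes and no length slope. That run therefore does not cover the spread of the real libraries. Coordinates are GENCODE vM21, where 98.6% of tested symbols had a unique match, 501 GENCODE symbols through a RefSeq synonym.

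The 6 genes and all lists were chosen with earlier results of these data known. The text names the 6, the passing neighbours (up to 10), the nearest tested neighbour on each side, the passing genes of each list (up to 4), Cyfip2, Gabra2, Dock2, Entpd4b, Crb2 and Wdfy3, and for each of the 6 the 3 tested genes with the highest Pearson r and a mean log2 CPM of at least 1. The ranking by Pearson r left out predicted genes, pseudogenes and Riken clones. Mmrn1 and Nlrp12 were named after their values were seen. 1 further gene that the rule names is not reported here. Of the 6, 3 had an entry in the RefSeq promoter table. Alternatives were RLE, upper-quartile and no scaling factors, other filters, DESeq2 1.42.0, the 6 libraries compared, the replicate number as a block, the length slope as a covariate and each library left out. Replicate numbers correlated between K2A and ΔPod (0.76, 0.40 and 0.85 in deviations from group means), and the labels give the numbers no meaning. An exact permutation test of 3 against 3 cannot go below 0.1, so none was used.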

Additional observations from a re-analysis of the deposited data

How the results depend on the processing

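The count of passing genes was 178 in ΔPod vs WT, 153 in K2A vs WT and 0 in K2A vs ΔPod. In the same order it was 998, 909 and 19 with DESeq2 and 2544, 2854 and 32 with the length slope as a covariate. It was 54 in ΔPod vs WT when fitted on the 6 libraries compared. With the replicate number as a block it was 270, 232 and 0. Between WT and ΔPod the correlations for numbers 1, 2 and 3 were -0.62, 0.44 and 0.71. Between WT and K2A they were -0.54, 0.76 and 0.71. Number 1 thus went the other way from numbers 2 and 3, and no pairing of WT with a mutant group was assumed. Leaving out 1 library gave 23 to 411, 3 to 291 and 0 to 2: in ΔPod vs WT it was 23 to 36 without any WT library or ΔPod 2, 78 to 91 without ΔPod 1, K2A 1 or K2A 2 and 411 without ΔPod 3. In K2A vs WT it was 3 to 23 without any WT library, K2A 1 or K2A 2, 95 without ΔPod 2 and 291 without ΔPod 3. Other scalings and filters kept the counts within 1.5 times. Upper-quartile factors moved the median of all genes by 0.18 in ΔPod vs WT and 0.15 in K2A vs WT. The cause of these shifts was not tested.

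The 6 genes were chosen with their counts known, so their passes under the alternatives are a description and carry no test. Wdfy1 ranged from -3.20 to -2.92 in ΔPod vs WT and passed in 18 of 18 alternatives. It passed in K2A vs WT and in K2A vs ΔPod with DESeq2 and the length slope, ranging from -1.15 to -0.72 and from 1.98 to 2.40. Entpd4 ranged from -1.80 to -1.47 in ΔPod, passing in 6 of 18, and from -2.60 to -2.20 in K2A, passing in 13 of 18. Of 280 member fold changes under alternatives, 6 changed sign. These were 3 of Nnt, 2 of Crb1 in K2A vs WT and 1 of Ide in K2A vs ΔPod. None of these had passed in the fit reported. Nnt ranged from -1.11 to 0.26 in ΔPod vs WT, and Ide from -1.44 to 0.66 in K2A vs ΔPod. Crb1 ranged from -1.06 to 0.08 in K2A vs WT. The count of passing neighbours, with Entpd4b counted among them, ranged from 0 to 5, 0 to 9 and 0 to 1, the highest with the length slope. Windows of 100 kb and 1000 kb gave 1 and 2 in K2A vs WT. Crb1, with 2 to 81 counts a library, is the gene most limited by depth.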
